A study of Mus musculus with 24 samples.

Results

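Cytosolic ribosomal protein genes were followed through RNA-seq of mouse spermatogonia from 2 mutant models. Genes were taken by name: every row called Rps or Rpl (Rplp for the stalk) followed by a number, with at most one of the letters a, l or x behind it, and without the suffix of a pseudogene. The rule found 80 genes among the 23177 rows of the Zbtb16 table and the same number among the 21688 rows of the Sox3 table. Of these, 31 are named for small subunit proteins and 49 for large subunit proteins. The rule went by name alone, and Rps4l, which it took, is annotated as a processed pseudogene. A total of 5 are paralogs of a core gene, namely Rpl3l, Rpl10l, Rpl39l, Rps4l and Rps27l, which leaves 29 small subunit and 46 large subunit core genes. Ribosomal proteins that are named outside this pattern, such as Rpsa and Fau, were counted apart as 8 further genes.

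The study isolated cells from testes of mice on a B6 background at postnatal day 7, pooling 3 mice per isolation, with magnetic beads against THY1 (undifferentiated spermatogonia, uSPG) or KIT (differentiating spermatogonia, dSPG). The Zbtb16 table holds WT and Zbtb16 null libraries, the null mice being homozygous for the luxoid (lu) allele. The Sox3 table holds WT and Sox3 cKO libraries, in which a floxed Sox3 allele was deleted by Ddx4-Cre, a Cre driven by a germ cell promoter. Each table has 3 libraries of each genotype in each fraction, 12 in all, and nothing in the labels says whether equal replicate numbers mark libraries made together. The labels call all controls used here WT, and the methods name WT littermates for these libraries.

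Every cell needs ribosomes, and each ribosome carries 1 copy of nearly every core protein, the small subunit decoding the mRNA and the large subunit joining the amino acids. The core genes are transcribed at high rates, and most of their mRNAs start with a run of pyrimidines, the terminal oligopyrimidine (TOP) element, through which nutrient signals set their translation. Pseudogenes made by reverse transcription of these mRNAs are scattered over the genome in large numbers. Male germ cells add a layer of their own: Rpl10, Rpl36a, Rpl39 and Rps4x lie on the X chromosome, which is silenced in meiosis, and autosomal paralogs such as Rpl10l and Rpl39l are used in the germ line. Rpl3l is best known from striated muscle, and Rps27l is a target of p53.

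The 4 genes around which the results on paralogs turn are shown by the bases at their annotated start, 20 before it and 10 from it on, from RefSeq on GRCm38.p6. Capitals mark the longest run of C and T in the stretch.
Rpl39 (chrX:37085213-37085242, minus strand): CCCCCCCTaagctccgcctctagcgacttc
Rpl39l (chr16:10170208-10170237, plus strand): cctagctcccaggCCTTTCCggatttccgg
Rpl10 (chrX:74270796-74270825, plus strand): CTatggttgttacagtggaagataggccgc
Rpl10l (chr12:66284392-66284421, minus strand): agaaatttggCCTCCattttgcggctggcg
In the Rpl39l stretch a run of 7 pyrimidines ends just before the start, and the longest run in the Rpl10l stretch is 5 bases long. The Rpl10 stretch has no run of C and T longer than 2 bases. Over the ribosomal protein genes, 59 had a promoter entry. A run of at least 8 C or T on the transcribed strand within 30 bases either side of the start was found in 31 of these 59 (52.5%), against 22.8% of 27025 genes with an entry. The letters CCGGAAG, searched on both strands of the 300 bases around the start, were found in 23 of the 59 (39.0%), against 9.12% of all genes with an entry. TATAAA, searched on both strands of the 250 bases before the start, was found in 2 of the 59 (3.39%) and in 12.97% of all. The letters searched in the 300 bases may overlap the pyrimidine run. These shares describe letters in a window and no binding was measured.

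Levels are given as FPKM (fragments per kilobase of transcript, scaled to the size of the library), which sets genes of unequal length on one scale. Estimated depth was 25952000 to 35190000 reads in the Zbtb16 table and 11016000 to 31888000 in the Sox3 table, where all 4 libraries numbered 1 were deeper than the other 8. The targeted genes were lower in the mutants: Zbtb16 fell from 52.1 ± 8.93 FPKM in WT to 17.1 ± 1.33 in null THY1+ uSPG (SD, n = 3), and Sox3 was at 0.0820 FPKM or below in every cKO library. The sorting markers followed the fraction labels in 18 of the 24 libraries. In the WT libraries of the Sox3 table they did not: Thy1 was at 0.213 to 0.254 FPKM in the 3 labelled THY1+ and at 3.59 to 4.06 in the 3 labelled KIT+, and Kit was at 45.6 to 80.1 against 12.97 to 18.8. These libraries are therefore called labelled THY1+ and labelled KIT+, and the genotype effect on Sox3 was taken as the mean of both fractions, which is the same if the WT labels are exchanged. Germ cell markers were present in all libraries, and 6 to 7 of the germ cell genes listed reached 1 FPKM in every group. This list includes Utf1, which the study reports as bound and attenuated by ZBTB16 in uSPG. Other cells were present too. Summed over 9 macrophage genes, THY1+ libraries of the Zbtb16 table held 375 to 915 FPKM and KIT+ libraries 6.02 to 15.4, whereas 8 Leydig cell genes summed to 58.7 to 134 FPKM in THY1+ and 1238 to 3181 in KIT+. In bulk RNA, fewer cells of a type and less RNA per cell cannot be told apart.

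The first question was how much of each ribosomal protein mRNA these cells held. Although the proteins are needed in equal numbers, the levels of the core genes spread over a wide range. Averaged over the 12 libraries of the Zbtb16 table, Rpl4, a large subunit protein near the exit tunnel, led with 1073 FPKM, and Rplp1 of the stalk (983), Rpl8 (865) and Rpl32 (510) were among the highest. At the other end stood Rps29 with 2.19 FPKM, Rps16 with 3.19, Rpl28 with 3.49, Rpl11 with 4.69 and Rps13 with 5.12. The median of the 75 core genes was 33.4 FPKM, and the highest mean was 491-fold above the lowest. That range rests on Rps29 at its lower end, a gene with few reads in the Sox3 table (below). The small subunit core genes had a median of 40.1 FPKM and the large subunit core genes 28.8.

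The order of the levels was nearly the same in the Sox3 table. There, Rpl4 was at 1057 FPKM, Rplp1 at 969, Rpl8 at 948 and Rpl32 at 502. The lowest core genes were Rps29 (2.41), Rps16 (2.43), Rpl28 (3.42), Rpl11 (4.53) and Rpl36a (4.64). Spearman's rho between the mean levels in the tables was 0.997 over the 80 genes, which describes genes that share transcript models and read mapping. Within a table, a gene moved far less than genes differed from each other: the highest of its 12 libraries was 1.24 to 3.53 times the lowest in the Zbtb16 table, with a median of 1.66, and 1.46 to 7.61 times in the Sox3 table, with a median of 2.05.

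Many of these genes have copies elsewhere in the genome, and reads with up to 50 placements were kept in the alignment. The principal transcript of each gene was cut into words of 50 bases, the length of a read, and the share of words found in no other annotated gene was taken. This share ran from 1.35% (Rps27) to 100% over the 80 genes, with a median of 57.5%, and the median gene shared words with 10 other genes. The 17 core genes under 25% had a median level of 10.7 FPKM in the Zbtb16 table, the 14 between 25% and 50% had 37.7 FPKM, and the 44 at or above 50% had 55.3 FPKM. No gene under 25% exceeded 32.4 FPKM. Over the 75 core genes, Spearman's rho between level and unique share was 0.49 in the Zbtb16 table and 0.48 in the other. How the counting treated shared reads was not stated, so the levels of genes with few unique words, among them Rpl10 (14.6%), Rpl3 (14.4%) and Rps4x (27.8%), are uncertain. The 3 lowest core genes of both tables, Rps29, Rps16 and Rpl28, had 59.9 to 65.5% unique words.

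**Figure D1:**
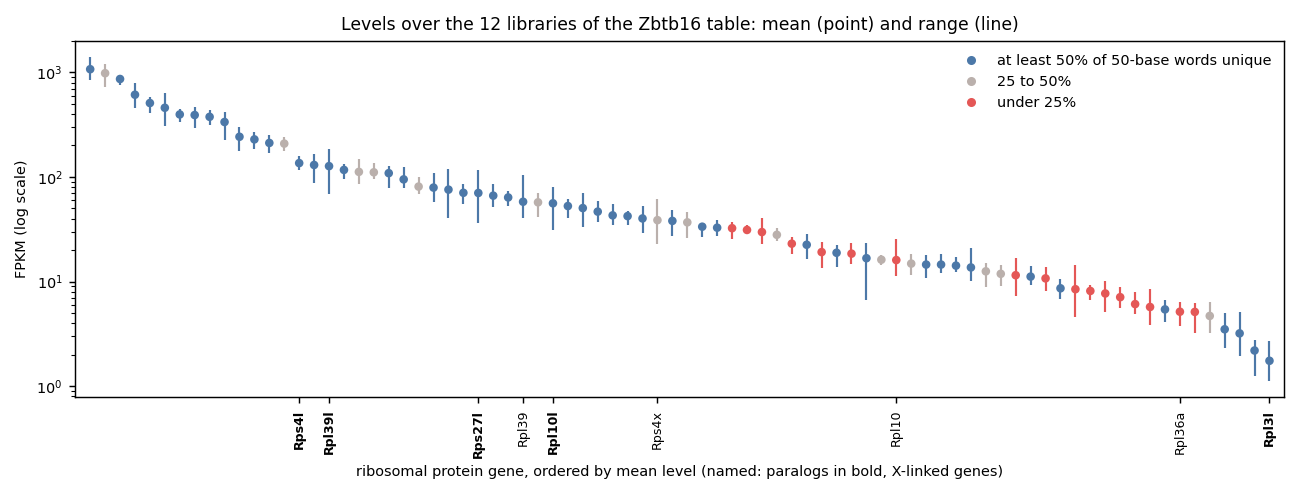
Mean level of each of the 80 ribosomal protein genes over the 12 libraries of the Zbtb16 table (points, FPKM on a log scale) with the range over libraries (lines), colored by the share of unique 50-base words, with the names of the paralogs (bold) and the X-linked genes. The levels run from 1.74 FPKM (Rpl3l) to 1073 FPKM (Rpl4), and the genes with under 25% unique words all lie at or below 32.4 FPKM.

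Read numbers set the precision. The estimated reads of a gene in its shallowest library had a median of 1751 and 658 in the Zbtb16 and Sox3 tables. A library with under 100 reads was found for 4 genes of the former and 15 of the latter, the lowest being Rps29 with 7 reads in a Sox3 library. Rps29 ranged from 0.719 to 3.44 FPKM in the Sox3 table and is not interpreted further.

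Apart from Rpl3l, the paralogs were no minor transcripts. Rps4l (chr6:148354656-148355598, an annotated processed pseudogene that is transcribed) averaged 136 FPKM and 154 in the Zbtb16 and Sox3 tables. Rpl39l averaged 127 and 128 FPKM, Rps27l 70.3 and 81.7, Rpl10l 56.0 and 58.0, and Rpl3l 1.74 and 1.34. Of the 80 genes, Rps4l and Rpl39l ranked 15th and 17th in both tables, above their X-linked counterparts Rps4x (39th and 40th) and Rpl39 (30th and 31st). For Rpl39l and Rpl39 both shares of unique words are high (100% and 83.8%), so this pair can be set side by side per length. Rpl39l exceeded Rpl39 in all 6 WT libraries of the Zbtb16 table, by 2.90 to 3.24 times in THY1+ uSPG and by 1.63 to 2.75 times in KIT+ dSPG.

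The comparison of fractions in WT asked what changes between undifferentiated and differentiating spermatogonia. In the Zbtb16 table most ribosomal protein genes were modestly higher in KIT+ dSPG, and 12 of 80 passed the test (adjusted p at most 0.05), all of them higher. Among them were Rps27l, Rpl36, Rpl10, Rpl27a, Rpl22, Rpl12, Rps21, Rpl27, Rps18, Rps14 and Rpl37a. Rps27l was at 38.2, 36.4 and 54.9 FPKM in the THY1+ libraries and at 115, 68.6 and 102 in the KIT+ libraries, with no overlap. The rise was 2.19-fold (log2 1.13, SE 0.24, adjusted p = 0.0042 by limma), and it was the 1 gene of the 80 that also reached 1.5-fold, against 7.21% of all genes.

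Core genes that passed rose by less. Rpl36, a large subunit protein, was at 7.64, 9.47 and 9.87 FPKM in THY1+ and at 11.6, 12.7 and 15.5 in KIT+ (log2 0.56, SE 0.14, adjusted p = 0.0099). Rpl10, which the subunits need for joining, was at 11.5, 11.3 and 12.8 FPKM against 14.1, 17.7 and 18.7 (log2 0.49, SE 0.13, adjusted p = 0.016). Both were higher in every KIT+ library than in any THY1+ library. The other 9 rose by 0.32 to 0.42 on the log2 scale, from Rpl37a to Rpl27a.

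In the fit without a replicate block, the share past the test was not high against the background. The 12 genes are 15% of the 80, and 11.6% of all 22374 genes tested were higher in KIT+ at the same threshold. The share depended on the fit. With the replicate number as a block, 37 of the 80 were higher (46.2%, against 19% of all genes) and 1 was lower (1.25%, against 24.7%). The direction was more uniform than the calls: 73 of the 80 had a positive difference, including all 29 small subunit core genes and 42 of 46 large subunit core genes. The median difference was 0.25 on the log2 scale, against -0.03 over all genes tested. Groups did not overlap in 24 of 80 genes, all higher in KIT+, against 18.5% of all genes higher without overlap and 24.1% lower. Genes with at least 50% unique words had a median of 0.23 (44 core genes) and those below had 0.26 (31 core genes). The number past the test depended on single libraries, and it was 2 without WT THY1+ replicate 1 and 20 without WT THY1+ replicate 3. The fractions also differed in other cells, with Leydig genes higher in KIT+ (8 of 8 past the test) and macrophage genes lower (9 of 9). Of all 22374 genes tested, 3888 were lower in KIT+. The part of these cells in the differences was not tested.

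**Figure D2:**
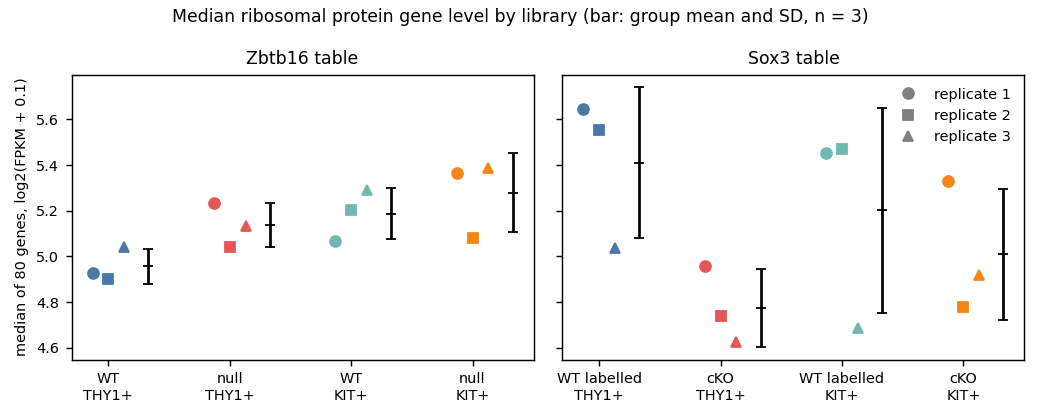
Median of the 80 ribosomal protein genes in each library, as log2(FPKM + 0.1), with the group mean and SD (n = 3). In the Zbtb16 table the medians lie between 4.90 and 5.39, and in the Sox3 table the third replicates of both WT groups (5.03 and 4.68) lie below the other 4 WT libraries (5.45 to 5.65).

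Loss of Zbtb16 was then compared with WT in each fraction. In THY1+ uSPG no ribosomal protein gene passed the test in limma, against 5.30% of all genes, and at an unadjusted p under 0.05 there were 10 of 80 (12.5%), against 23.8% of all genes. The differences were small and mostly positive, with 66 of 80 above 0 and a median of 0.13 on the log2 scale against -0.03 over all genes. The median library level was 4.93, 4.90 and 5.04 in WT and 5.23, 5.04 and 5.14 in null on the log2(FPKM + 0.1) scale, so that 1 null library equaled the highest WT library to 2 decimals. Without WT replicate 3 the median difference was 0.22, and without WT replicate 2 it was 0.05. Same-numbered WT and null libraries deviated together in this fraction, and with the replicate number as a block 8 of the 80 passed the test, all higher (against 11% of all genes higher and 9.28% lower).

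The smallest p in THY1+ uSPG belonged to a paralog. Rpl3l was at 1.43, 1.13 and 1.59 FPKM in WT and at 2.70, 2.25 and 2.39 in null, a difference of 0.79 (SE 0.22, adjusted p = 0.063 in limma). Rps4l followed a similar order, with 136, 131 and 125 FPKM in WT and 159, 159 and 159 in null (log2 0.28, SE 0.10, adjusted p = 0.11). Rpl39l was at 129, 117 and 158.0 FPKM in WT and 184, 158.2 and 180 in null (log2 0.38, SE 0.17, adjusted p = 0.20), and Rpl10l at 52.0, 57.1 and 64.4 against 72.4, 65.9 and 79.9 (log2 0.33, SE 0.15, adjusted p = 0.22). In these 4 paralogs every null library lay above every WT library, and none passed the test without the replicate block. With it, the adjusted p in limma was 0.012 for Rpl3l, 0.020 for Rpl39l, 0.026 for Rps4l and 0.070 for Rpl10l. In all, 14 of the 80 were higher without overlap (15.5% of all genes) and 1 was lower (14.1% of all genes). Germ cell genes summed to 932 to 1133 FPKM in WT and 1082 to 1414 in null, and macrophage genes to 803 to 915 against 375 to 717, and their part was not tested.

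In KIT+ dSPG none of the 80 passed the test in limma without the replicate block, against 0.277% of all genes, and 9 had an unadjusted p under 0.05 (11.3%), against 17.3% of all genes. The median difference was 0.01, the same as over all genes. Groups did not overlap in 7 genes that were higher in null (8.73% of all genes) and 2 that were lower (8.77% of all genes). The 2 largest differences belonged to X-linked genes. Rps4x was at 23.0, 39.8 and 36.3 FPKM in WT and at 48.1, 61.7 and 61.2 in null (log2 0.81, SE 0.18, adjusted p = 0.12). Rpl39 was at 44.2, 55.9 and 65.6 FPKM against 67.4, 86.3 and 105 (log2 0.64, SE 0.17, adjusted p = 0.16). Rpl10, the fifth highest after Rps27 and Rpl11, was at 14.1, 17.7 and 18.7 FPKM against 18.8, 23.8 and 25.4 (log2 0.43, SE 0.13, adjusted p = 0.18). In these 3 genes every null library exceeded every WT library. Same-numbered libraries deviated together here as well, and with the replicate block 4 of the 80 passed the test, all higher (against 2.91% of all genes higher and 2.53% lower). Among them were Rpl39 (adjusted p = 0.031 in limma), Rpl10 (0.039) and Rps4x (0.043). The fourth X-linked gene, Rpl36a, was at 5.21, 4.88 and 6.36 FPKM in WT and 6.19, 4.94 and 6.39 in null, and the groups overlapped.

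Of the autosomal counterparts of these genes, Rpl39l and Rpl10l stood on the other side and Rps4l did not. Rps4l was at 124, 126 and 122 FPKM in WT KIT+ dSPG and at 148, 121 and 118 in null, so that the groups overlapped. Rpl39l was at 122, 91.2 and 122 FPKM in WT KIT+ dSPG and at 102, 69.4 and 91.9 in null (log2 -0.35, SE 0.17, adjusted p = 0.31), and Rpl10l at 49.3, 49.0 and 57.8 against 48.1, 31.4 and 44.6 (log2 -0.35, SE 0.15, adjusted p = 0.28). The ratio of Rpl39l to Rpl39 was 2.75, 1.63 and 1.86 in the WT libraries and 1.52, 0.804 and 0.877 in the null libraries, so that the groups did not overlap. The same held for the ratio of Rpl10l to Rpl10, which was 3.50, 2.77 and 3.09 in WT and 2.56, 1.32 and 1.76 in null. It also held for Rps4l to Rps4x, with 5.42, 3.17 and 3.35 in WT and 3.08, 1.96 and 1.92 in null, although Rps4l itself overlapped. Rpl10 and Rps4x share most of their words with other genes, so the ratios to them are less certain than that of Rpl39l to Rpl39. The KIT+ ratios of Rps27l to Rps27 and of Rpl3l to Rpl3 overlapped between genotypes. In THY1+ uSPG the first ratio was 3.07, 2.90 and 3.24 in WT and 3.93, 3.35 and 3.90 in null, higher in every null library. Rpl10l to Rpl10 was also higher there, with 4.51, 5.04 and 5.02 in WT and 5.77, 5.32 and 6.02 in null. Rps4l to Rps4x overlapped, with 4.48, 4.94 and 4.79 in WT and 3.97, 4.44 and 4.60 in null. Leydig cell genes summed to 1238, 2330 and 1993 FPKM in the 3 WT KIT+ libraries and to 2087, 2941 and 3181 in the null, and germ cell genes to 1152, 897 and 1075 against 1010, 669 and 901. The WT KIT+ library with the lowest Leydig sum had the highest ratio of Rpl39l to Rpl39 of the 6. The part of the cell mixture was not tested.

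The difference between the fractions in the effect of Zbtb16 loss was tested as an interaction. No ribosomal protein gene passed it in limma without the replicate block, and 7 of 22374 genes did (0.0313%). At an unadjusted p under 0.05 there were 5 of the 80 (6.25%, against 22.4% of all genes): Rpl3l (-1.096, SE 0.31), Rpl39l (-0.73, SE 0.24), Rpl10l (-0.68, SE 0.22), Rpl39 (0.53, SE 0.24) and Rpl36 (0.47). Their adjusted p-values lay at 0.10 or above. All 5 paralogs had a negative interaction, and 3 of 4 X-linked genes a positive one. A negative sign was common in the list: 56 of the 80 were negative and 24 positive. The median of the 80 was -0.096 on the log2 scale, against 0.0039 over all genes.

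Many ribosomal protein genes were lower in Sox3 cKO when the 6 cKO libraries were compared with the 6 WT libraries. Averaged over both fractions, 30 of 80 passed the test, all of them lower, among them 10 of 29 small subunit core genes, 15 of 46 large subunit core genes and all 5 paralogs. These are 37.5% of the 80, where 11.6% of all 21212 genes tested were lower. A total of 73 of the 80 had a negative difference, and the median was -0.35 on the log2 scale against 0.02 over all genes. The changes were modest: 10 of the 30 also reached 1.5-fold, a share of 12.5% against 2.83% of all genes.

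The largest falls past the test came from both subunits and from the paralogs. Rps21, a small subunit protein, ranged from 76.7 to 213 FPKM over the WT libraries with a median of 157, and from 74.2 to 126 over the cKO libraries with a median of 82.3 (log2 -0.77, SE 0.20, adjusted p = 0.019). Rplp2, one of the acidic stalk proteins that recruit elongation factors, ranged from 59.4 to 106 FPKM with a median of 95.6 in WT and from 45.0 to 67.7 with a median of 56.8 in cKO (log2 -0.67, SE 0.13, adjusted p = 0.0054). In both genes all 6 cKO libraries lay below the WT median, and the ranges overlapped. Rpl26 (-0.71), Rps26 (-0.69), Rpl37a (-0.67) and Rpl29 (-0.65) were further core genes past 1.5-fold, with adjusted p-values of 0.019 to 0.040.

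All 5 paralogs fell, and Rpl39l had the smallest p of the 80. Rpl39l ranged from 132 to 200 FPKM in the WT libraries (median 148) and from 79.2 to 129 in the cKO libraries (median 99.2), with a difference of -0.61 (SE 0.09, adjusted p = 0.0031). It was the 1 gene of the 80 whose 6 cKO libraries all lay below all 6 WT libraries, against 2.79% of all genes. Rpl10l ranged from 58.7 to 85.2 FPKM in WT (median 69.2) and from 28.5 to 62.1 in cKO (median 44.6), with a difference of -0.61 (SE 0.12, adjusted p = 0.0056). Rps4l (-0.46, SE 0.13, adjusted p = 0.027), Rpl3l (-0.44, SE 0.13, adjusted p = 0.031) and Rps27l (-0.42, SE 0.11, adjusted p = 0.021) were lower as well. None of the 4 X-linked genes passed the test, and 3 of them had a positive difference, from 0.21 (Rps4x) to 0.40 (Rpl39, adjusted p = 0.15). Rpl39 ranged from 36.9 to 74.8 FPKM in WT and from 45.4 to 107 in cKO.

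How many genes passed depended on the libraries, and those of WT replicate 3 stood apart. Their median levels on the log2(FPKM + 0.1) scale were 5.03 (labelled THY1+) and 4.68 (labelled KIT+), against 5.45 to 5.65 in the other 4 WT libraries and 4.63 to 5.33 in the 6 cKO libraries. Without the WT labelled KIT+ replicate 3 the number past the test was 47, and without cKO THY1+ replicate 2 it was 10. The fit on replicates 2 and 3 alone, which leaves out the 4 deeper libraries, had 3 genes past the test. Correction for GC content and transcript length left 17 lower genes and 1 higher. The median difference stayed between -0.45 and -0.31 when single libraries were left out. Beside these genes, 5 of 8 Leydig, 3 of 7 Sertoli and 4 of 7 endothelial genes were higher in cKO and 4 of 7 germ cell genes lower. Of all 21212 genes tested, 2771 were higher and 2452 lower. The part of these cells was not tested.

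**Figure D3:**
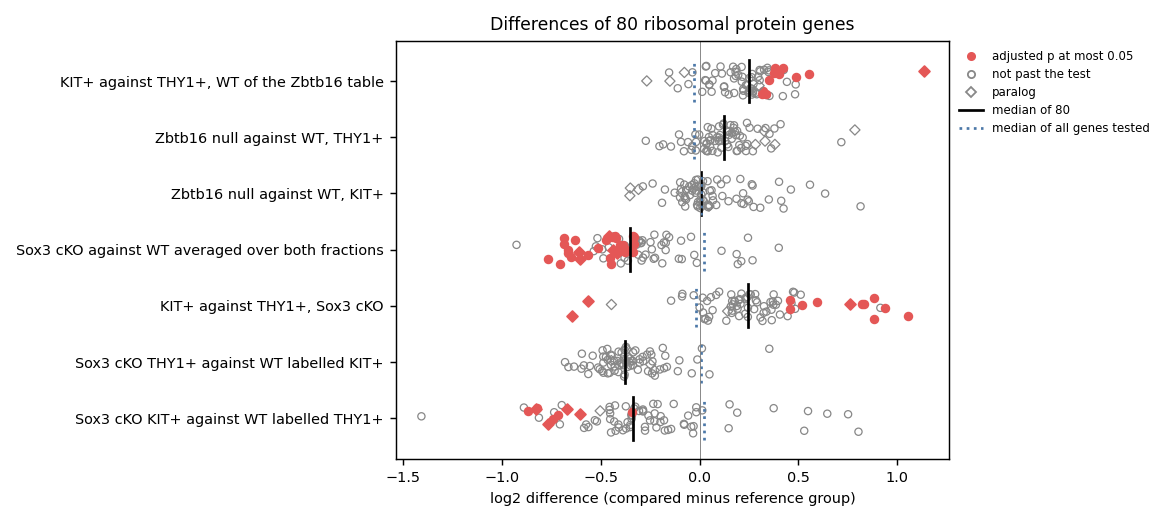
Differences of the 80 ribosomal protein genes on the log2 scale in 7 comparisons, with the genes past the test filled in red, paralogs as diamonds, the median of the 80 as a solid line and the median of all genes as a dotted line. The median of the 80 lies at 0.25 for WT fractions of the Zbtb16 table and at -0.35 for Sox3 cKO against WT, where the 30 genes past the test all lie below 0.

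The fractions of the Sox3 cKO mice repeated the comparison of KIT+ with THY1+ in libraries whose markers match their labels. Of the 80 genes, 11 were higher in KIT+ dSPG (13.8%, against 14.3% of all genes) and 2 lower (2.50%, against 15%). The median was 0.24, and 73 of 80 were positive. Without cKO KIT+ replicate 1 the median was 0.13, and without cKO KIT+ replicate 2 it was 0.37. Rps4x was at 27.7, 26.9 and 20.9 FPKM in THY1+ and at 73.2, 39.8 and 48.4 in KIT+ (log2 1.06, SE 0.35, adjusted p = 0.039). Rpl15, a large subunit protein, was at 12.2, 9.92 and 9.996 FPKM against 24.1, 19.4 and 18.3 (log2 0.94, SE 0.20, adjusted p = 0.0040). Rpl24, Rpl10, Rpl36, Rpl39, Rps27l and Rpl41 also rose by at least 1.5-fold (10.5% of all genes did), by 0.59 to 0.88 on the log2 scale, and Rpl27a, Rpl22 and Rps19 by less. In all 11 genes each KIT+ library exceeded each THY1+ library, but these genes were picked by a test on the same libraries. Of the 80, 26 were higher in KIT+ without overlap, 3 were lower and 51 overlapped. The share of all genes without overlap was not taken here, so these counts are not read further.

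The 2 genes that fell in cKO KIT+ dSPG were the germ line paralogs. Rpl10l was at 62.1, 48.8 and 58.8 FPKM in THY1+ and at 40.2, 28.5 and 40.5 in KIT+ (log2 -0.65, SE 0.17, adjusted p = 0.013), the 1 of both that reached 1.5-fold (12.2% of all genes). Rpl39l was at 129, 112 and 125 FPKM against 81.9, 79.2 and 86.4 (log2 -0.56, SE 0.13, adjusted p = 0.0085). The ratio of Rpl39l to Rpl39 was 2.12, 2.46 and 2.76 in cKO THY1+ and 0.765, 1.105 and 0.952 in cKO KIT+. Leydig genes summed to 92.9 to 124 FPKM in cKO THY1+ and to 2544 to 5026 in cKO KIT+, and their part was not tested. Without cKO THY1+ replicate 3 the number past the test was 6, and on replicates 2 and 3 alone it was 4.

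The WT libraries of the Sox3 table, taken as labelled, gave the opposite order for Rps27l. Rps27l was at 138, 146 and 108 FPKM in labelled THY1+ and at 73.1, 57.1 and 49.3 in labelled KIT+ (log2 -1.14, SE 0.16, adjusted p = 0.0003). Rpl36 was at 17.7, 23.6 and 14.3 FPKM against 10.9, 13.1 and 10.7 (log2 -0.65, SE 0.20, adjusted p = 0.035). These were the 2 genes past the test (2.50%, against 9.43% of all genes lower), and in both the direction is that of the sorting markers in these libraries. The median of the 80 was -0.22, and 65 of 80 were negative. The median was -0.020 without WT labelled KIT+ replicate 3 and -0.36 without WT labelled THY1+ replicate 3.

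Because of the label conflict, cKO groups were compared with the WT group of the same label and also with the WT group of like sorting markers. Against WT labelled THY1+, 45 of 80 genes were lower in cKO THY1+ uSPG (17.7% of all genes) and none was higher, with a median of -0.63. Groups did not overlap in 56 genes, all lower (24.5% of all genes). Rps27l was lowest (log2 -1.37, SE 0.16, adjusted p = 6.2e-05), and Rps21 (-1.19), Rpl36 (-1.03) and Rpl37a (-0.98) were among the next. In all, 33 of the 45 reached 1.5-fold, against 11.3% of all genes. They include Rpl26, Rpl13, Rplp2, Rps14, Rpl32, Rpl22, Rps2, Rps28, Rpl7a, Rps3, Rpl35, Rpl28, Rps19, Rps18, Rplp1, Rps7, Rps15a, Rpl12, Rpl3l, Rps6, Rpl41, Rpl27, Rps24, Rpl34 and Rpl37, by 0.61 to 0.93 on the log2 scale. Against WT labelled KIT+, whose Thy1 and Kit levels resemble those of cKO THY1+, none of the 80 passed the test in limma (0.0707% of all genes did). There, 26 had an unadjusted p under 0.05 (32.5%, against 13.2% of all genes), 77 of 80 were negative with a median of -0.38, and 16 were lower without overlap (12% of all genes).

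For cKO KIT+ dSPG the same pair of comparisons gave smaller counts. Against WT labelled THY1+, which has like markers, 9 of 80 were lower (11.3%, against 9.21% of all genes) and none higher, with a median of -0.34. Among them were Rps21 (-0.87), Rpl10l (-0.83), Rplp2 (-0.82), Rpl39l (-0.77), Rps28 (-0.72), Rps4l (-0.67), Rps27l (-0.61) and Rpl35a (-0.34), with adjusted p-values of 0.0039 to 0.049. Against WT labelled KIT+, 4 were lower, namely Rpl10l (-1.04), Rpl39l (-1.01), Rps4l (-0.69) and Rpl4 (-0.52), and 5 were higher, namely Rpl39 (0.87), Rpl10 (0.84), Rpl24 (0.77), Rpl15 (0.76) and Rps27l (0.53), against 17.8% of all genes lower and 15.4% higher. Rpl10l was at 85.2, 73.4 and 65.1 FPKM in WT labelled KIT+, at 75.4, 58.7 and 58.9 in WT labelled THY1+ and at 40.2, 28.5 and 40.5 in cKO KIT+. The cKO KIT+ libraries lay below both WT groups. Rps27l fell against one WT group and rose against the other, since its level in cKO KIT+ (86.3, 84.2 and 85.4 FPKM) lay between them. These comparisons share libraries, and their values are not independent of each other.

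**Figure D4:**
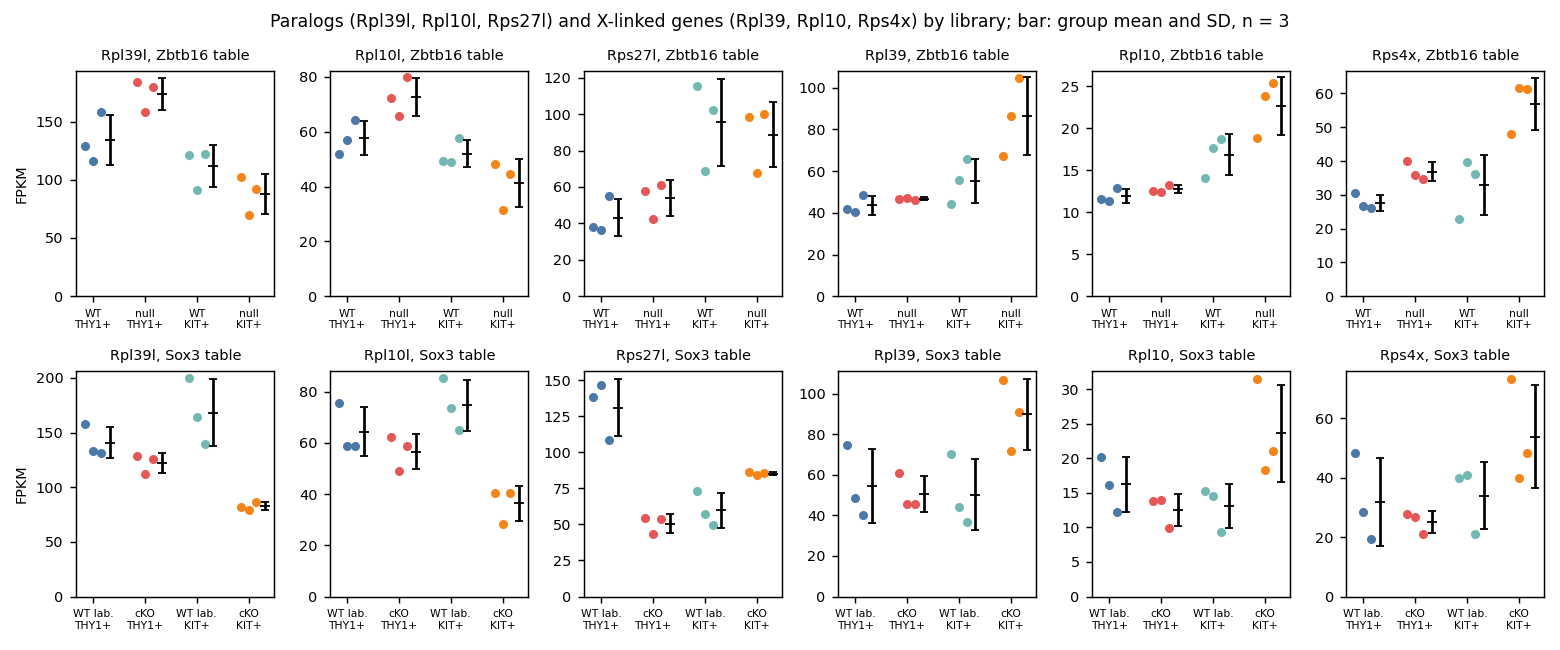
Levels of 3 paralogs and 3 X-linked genes in each library (points, FPKM) with the group mean and SD (n = 3), Zbtb16 table above and Sox3 table below. Rpl39l is lowest in null KIT+ (69.3 to 102 FPKM) and cKO KIT+ (79.2 to 86.4 FPKM), where Rpl39 is highest (67.4 to 105 and 71.7 to 107 FPKM).

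Mean levels of Rpl39l in the Zbtb16 table ran from null THY1+ (174 ± 13.8 FPKM) through WT THY1+ (134 ± 21.4) and WT KIT+ (112 ± 17.7) to null KIT+ (87.8 ± 16.8; SD, n = 3). Rpl10l kept the same order, with 72.7 ± 6.99, 57.8 ± 6.24, 52.1 ± 4.97 and 41.4 ± 8.81 FPKM, in which the neighbors WT THY1+ and WT KIT+ overlapped. For Rpl39l the 2 WT groups overlapped, as did WT KIT+ and null KIT+. Rpl3l was at 2.45 ± 0.229 FPKM in null THY1+ and at 1.39 to 1.74 in the other 3 groups, and rests on 55.0 to 125 estimated reads a library. Rps27l instead separated the fractions, with 43.2 ± 10.2 and 53.9 ± 9.96 FPKM in WT and null THY1+ and 95.4 ± 24.1 and 88.7 ± 18.04 in WT and null KIT+. In the Sox3 table Rps27l was at 131 ± 20 FPKM in WT labelled THY1+, 85.3 ± 1.06 in cKO KIT+, 59.8 ± 12.2 in WT labelled KIT+ and 50.6 ± 6.48 in cKO THY1+, the last 2 overlapping. Rps4l was highest in null THY1+ (159 ± 0.281 FPKM), and the means of the other Zbtb16 groups ran from 124 ± 2.31 to 131 ± 5.55. Among these, the null KIT+ libraries spread more widely, at 148, 121 and 118 FPKM.

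The 8 ribosomal protein genes named outside the rule were tested in the same fits. In WT of the Zbtb16 table, Rpl36al (log2 0.50, SE 0.12, adjusted p = 0.012), an autosomal relative of Rpl36a, and Rpl7l1 (0.34, SE 0.10, adjusted p = 0.021) were higher in KIT+ dSPG, 2 of the 8. In Sox3 cKO, averaged over fractions, 2 of the 8 were lower, among them Rpl36al (-0.64, SE 0.16, adjusted p = 0.017), and all 8 had a negative difference. None of the 8 passed the test in either Zbtb16 null comparison. Pseudogene rows named after ribosomal protein genes numbered 101 and 86 in the Zbtb16 and Sox3 tables. They share reads with the members. Of the 101, 1 was past the test between WT fractions (higher, as were 11.6% of all genes). In Sox3 cKO 10 of 86 were lower (11.6% of all genes were) and 1 was higher.

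The genes for mitochondrial ribosomal proteins, a separate ribosome coded largely in the nucleus, gave a count to set beside the cytosolic ones. For this list and those that follow, 11.6% of all genes were higher in KIT+ dSPG of WT and 11.6% lower in Sox3 cKO. In the other direction, 3888 of 22374 genes were lower in KIT+ dSPG of WT and 2771 of 21212 higher in Sox3 cKO. In Zbtb16 null THY1+ uSPG 5.3% of all genes passed in either direction. Of 77, 24 were higher in KIT+ dSPG of WT in the Zbtb16 table and none lower, among them Mrps28 (0.78, SE 0.12) and Mrpl54 (0.71, SE 0.15), with a median of 0.22. In Zbtb16 null THY1+ uSPG 3 of 77 were higher, with a median of 0.25. In Sox3 cKO 41 of 77 were lower and none higher, with a median of -0.31, among them Mrpl12 (-0.999, SE 0.29) and Mrps16 (-0.60, SE 0.11). Genes of ribosome assembly and RNA polymerase I showed 13 of 26 lower in Sox3 cKO, including the polymerase subunit Polr1c (-0.71, SE 0.09) and Nhp2 of the H/ACA complex (-0.63, SE 0.11). In Zbtb16 null THY1+ uSPG 1 of 26 rose, Polr1e (0.62, SE 0.10), and between WT fractions none of the 26 passed.

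Other parts of the translation machinery were also counted. Of 26 translation factors, 11 were lower in Sox3 cKO, such as Eif3i (-0.61, SE 0.11) and Eif3g (-0.54, SE 0.10), 1 was higher in Zbtb16 null THY1+ uSPG (Eif3c, 0.33), and 4 were higher and 1 lower in KIT+ dSPG of WT. Of 16 further genes whose mRNAs carry a TOP element, 2 were lower in Sox3 cKO, Npm1 (-0.46, SE 0.09) and Eef1d (-0.39, SE 0.08), and none differed in Zbtb16 null THY1+ uSPG. Between WT fractions 1 was higher, Eif3e (0.49), and 2 were lower, Pabpc1 (-0.56) and Eif4b (-0.29). Among 17 known regulators of ribosomal protein genes, Myc was higher in Sox3 cKO (0.73, SE 0.21, adjusted p = 0.027), while Mycn (-0.63, SE 0.11, adjusted p = 0.0037) and Eif4ebp1, a repressor of cap-dependent translation (-0.50, SE 0.09, adjusted p = 0.0038), were lower. In WT KIT+ dSPG Ddit4, an inhibitor of mTOR signaling (-1.28, SE 0.37), and Larp1, which binds TOP mRNAs (-0.59, SE 0.19), were lower and Rps6kb1 (0.31, SE 0.10) higher. None of the 17 passed in Zbtb16 null THY1+ uSPG. In Zbtb16 null KIT+ dSPG no gene of these 5 lists passed the test in limma. The median differences there ran from -0.07 to 0.08 on the log2 scale.

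The lists of cell type markers give the cells behind these values. Between WT fractions of the Zbtb16 table, 9 of 10 genes of undifferentiated spermatogonia were lower in KIT+ and 6 of 8 of differentiating spermatogonia higher. The list of germ cell genes had 2 of 8 lower. Of other cells, 2 of 8 Sertoli genes were higher, and 6 of 8 peritubular and stromal, 1 of 7 endothelial and 7 of 8 T cell genes lower. None of 5 erythroid genes was past the test. Of all 22374 genes tested between these fractions, 2585 were higher and 3888 lower. In Zbtb16 null THY1+ uSPG 1 germ cell gene was higher and 1 macrophage gene lower, and all 8 Sertoli, 8 Leydig and 8 stromal genes had negative differences without passing. In null KIT+ dSPG no marker gene passed, and Leydig genes had a median of 0.60. In Sox3 cKO, 4 of 8 genes of differentiating spermatogonia were lower, and 1 of 10 of undifferentiated spermatogonia was higher and 1 lower. There, 2 of 9 macrophage, 2 of 5 erythroid and 1 of 8 stromal genes were higher, and no T cell gene passed. Of all 21212 genes tested in that comparison, 2771 were higher and 2452 lower. What part these cells have in the ribosomal protein values was not tested.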

How the data were processed

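RNA was measured in 24 libraries, 3 for each of 8 groups. Libraries were rRNA-depleted, stranded and sequenced as single reads, which the authors aligned to mm10 with Novoalign (all placements of a read, up to 50). The deposited values are FPKM, computed by the authors with USeq, in 1 table per mutant. Whether counting used the strand is not given in the sources used here. No counts were analysed here, so log values were tested.

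Values were analysed as log2(FPKM + 0.1), so changes of low genes are understated, in limma 3.58.1 under R 4.3.3. The tests covered all genes averaging 0.1 FPKM or more (22374 and 21212), including all 80 members in both tables. The fit had 4 group means per table, with eBayes (trend, robust), two-sided tests and Benjamini-Hochberg adjustment over all genes tested in a comparison. A gene is past the test at an adjusted p of at most 0.05. The fit was tested on simulated data first. The study describes its replicates as independent biological ones, while the labels only number them. Deviations of same-numbered libraries from their group means were correlated across genes as a check of pairing. The correlations were over 0.1 in all 3 pairs of WT and Zbtb16 null libraries, at 0.13 to 0.47 in THY1+ and 0.36 to 0.52 in KIT+, while differently numbered libraries averaged -0.16 in that table. The pairing of these comparisons comes from the data, and their values with a replicate block stand beside the values without it, which the design had fixed as the main ones.

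Read numbers were estimated from steps of low FPKM values, where 1 read has a fixed worth, and cover counting error only. Unique shares and positions used GENCODE vM21 (GRCm38). Genes are named by a rule: paralogs, X-linked genes, the 5 highest and 5 lowest core levels, the 5 largest rises and falls past the test, every gene also past 1.5-fold, and other lists by at most 4 examples. Genes named beyond it (the other genes past the test between WT fractions and between cKO fractions, Rpl35a, Rps27, Rpl3, Rpl11 and Rpl36 where their share, rank or interaction is given) were chosen after their values were seen. A few genes that the rule names are not reported here. Members and lists were chosen with earlier results of these data known. Alternatives were another pseudocount, filters, centring, quantile normalization, a GC and length correction, a replicate block, single groups and left-out libraries.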

Additional observations from a re-analysis of the deposited data

Results flagged for a closer look

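In the Zbtb16 table, the difference of Rpl10l from WT went in opposite directions in the fractions, with no overlap between genotypes in either. Without overlap, 15.5% of all genes were higher in null THY1+ and 8.77% lower in null KIT+. Neither difference of Rpl10l passed the test, and with a replicate block the adjusted p in limma was 0.070 in THY1+ and 0.086 in KIT+. It was 0.33 higher on the log2 scale in null THY1+ uSPG, where the null libraries held 65.9 to 79.9 FPKM and the WT libraries 52.0 to 64.4. In KIT+ dSPG the difference was -0.35, with 31.4 to 48.1 FPKM in null and 49.0 to 57.8 in WT. The difference between the fractions did not pass the test (interaction -0.68, SE 0.22, adjusted p = 0.12 in limma). With a replicate block the adjusted p was 0.027 in limma, and 19.3% of all genes passed that test. Germ cell genes summed to 932 to 1133 FPKM in WT and 1082 to 1414 in null THY1+, and to 897 to 1152 in WT and 669 to 1010 in null KIT+, and their part was not tested.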

How the results depend on the processing

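The labels give replicates numbers but no pairing. Besides Zbtb16 null against WT in each fraction, all 3 same-numbered pairs correlated over 0.1 in 1 comparison, cKO THY1+ against WT labelled KIT+, where no member passed with the replicate block either. In the others not every same-numbered pair was over 0.1. Between WT fractions of the Zbtb16 table these pairs lay at 0.070 to 0.38. Over all groups, 16 of 18 same-numbered pairs were over 0.1 in the Zbtb16 table and 12 of 18 in the Sox3 table. Whether these libraries were made together is not known. With the block, the members past the test were 8 in Zbtb16 null THY1+ (20.3% of all genes passed) and 4 in null KIT+ (5.43%). They were 38 between WT fractions of the Zbtb16 table (43.6%), 3 for the interaction (Rpl39l, Rpl3l and Rpl10l, adjusted p = 0.017, 0.020 and 0.027 in limma, against 19.3%), 48 for Sox3 cKO averaged (31.2%), 23 for cKO fractions (35.5%), 6 for labelled WT fractions (against 30% of all genes), 56 for cKO THY1+ against WT labelled THY1+ (44.6%), 14 for cKO KIT+ against WT labelled KIT+ (39%) and 30 against WT labelled THY1+ (30.9%). In Zbtb16 null THY1+, pseudocount 1, median centring, quantile normalization and the GC and length correction each gave 1. WT fractions gave 21 with the GC and length correction and 6 when fitted alone. Median centring moved the median interaction from -0.10 to -0.25. Sox3 cKO averaged gave 17 with quantile normalization, 18 with the GC and length correction and 3 on replicates 2 and 3. On these replicates cKO fractions gave 4, cKO THY1+ against WT labelled THY1+ 17, cKO KIT+ against WT labelled KIT+ 5 and against WT labelled THY1+ 3. Labelled WT fractions gave 5, 6 and 4 with centring, quantiles and the correction, cKO KIT+ against WT labelled KIT+ 16 with quantiles, and against WT labelled THY1+ 22 with centring. Rps24 changed sign with quantile normalization in cKO THY1+ against WT labelled THY1+ (0.0049, against -0.63). The cause of these shifts was not tested. Leaving out single libraries gave 0 to 1 members past the test in Zbtb16 null THY1+ (median 0.051 to 0.22), 0 to 0 in null KIT+ (-0.031 to 0.0997), 2 to 20 between WT fractions (0.18 to 0.335), 0 to 1 for the interaction (-0.19 to -0.017), 10 to 47 for Sox3 cKO averaged (-0.45 to -0.31), 6 to 16 for cKO fractions (0.13 to 0.37), 1 to 4 for labelled WT fractions (-0.36 to -0.020), 18 to 50 and 7 to 14 for cKO THY1+ and KIT+ against WT of the same label (-0.72 to -0.535 and -0.37 to -0.016), and 0 to 0 and 4 to 19 against WT of like markers (-0.54 to -0.27 and -0.45 to -0.21). The counts of 18, of 4 and of 1 (labelled WT fractions) came without WT labelled THY1+ replicate 2, those of 50, 14, 16 and 19 without WT labelled KIT+ replicate 3, the 7 without WT labelled KIT+ replicate 2, the 4 of labelled WT fractions without WT labelled THY1+ replicate 3, and both counts of 1 in the Zbtb16 table without null KIT+ replicate 1.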
